A study of Homo sapiens with 4 samples.

Results

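Active ERK induces a set of genes whose products hold the RAS-ERK pathway in check or carry out its transcriptional programme, and 10 of these ERK feedback genes were followed here in BCL7A knockout (KO) and control NCI-H929 cells. They were chosen by name: the phosphatases DUSP4, DUSP5 and DUSP6, the Sprouty and SPRED genes SPRY1, SPRY4, SPRED1 and SPRED2, the transcription factors ETV4 and ETV5, and PHLDA1. All 10 matched 1 row each of the 56809 gene rows of the count table, and all 10 were among the 17885 genes with enough counts to be tested. NCI-H929 is an established human multiple myeloma line with an activating NRAS mutation, and poly(A) RNA was sequenced from 4 libraries of it. The KO group (replicates 1 and 2) came from Cas9-expressing cells at passage 2 that were transduced with a doxycycline-inducible BCL7A KO construct. The control group (replicates 1 and 2) came from Cas9-expressing cells with a control construct according to the protocol, although the titles and genotype labels call it wild type. Both groups had 3 days of puromycin selection and then 0.5 ug/ml doxycycline during 24 h. Nothing in the labels says whether the KO cells were a clone or a pool, or that libraries of the same group were grown separately. The p-values therefore reflect the spread between replicate libraries alone, and that spread may be technical.

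RAS proteins pass signals from growth factor receptors to the kinase RAF, which activates MEK, which in turn activates ERK. ERK then raises the transcription of its own inhibitors: DUSP proteins remove the activating phosphates from MAP kinases, while Sprouty and SPRED proteins act higher up, at the level of receptors, RAS and RAF. ETV4 and ETV5 are ETS-family transcription factors that ERK signalling induces, and the mRNA levels of these genes are widely used as a readout of pathway output. RAS mutations are common in multiple myeloma, a malignancy of plasma cells.

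BCL7A, a subunit of BAF chromatin remodelling complexes and the target of the KO construct, was 1.31 and 1.19 CPM in the KO libraries and 42.9 and 45.7 CPM in the control libraries. CPM are counts scaled to a common library size of 1000000 after TMM normalization. Library totals were 38671744 and 40799624 counts in the KO group and 17567202 and 20153596 in the control group, so the KO libraries were the deeper ones. The groups also stood far apart as a whole: 238 genes that averaged 1 CPM or more in the control libraries were not detected in either KO library, against 1 gene in the opposite direction. All 10 plasma cell markers examined were higher in the KO libraries, with summed levels of 13150 to 13156 CPM against 7729 to 7758 CPM and none at 0. Markers of mature B cells summed to 32.7 to 35.9 CPM in the KO and 388 to 402 CPM in the control group, where CD79A was 84.5 ± 2.34 CPM (SD, n = 2), against 0.165 ± 0.0726 CPM in the KO group. Epithelial markers summed to 11.99 to 12.6 against 66.1 to 70.9 CPM, mostly through EPCAM, which was at 0 in both KO libraries. T cell markers (14.2 to 14.3 against 28.2 to 29.3 CPM, CD3D at 0 throughout), myeloid markers (57.0 to 58.7 against 27.2 to 30.9 CPM, mostly CD68, MPO at 0 throughout) and fibroblast and endothelial markers (98.3 to 99.5 against 43.1 to 46.3 CPM, mostly PECAM1, LUM at 0 throughout) were also apart between the groups. Such sums hide members that went the other way. By the edgeR test given below, 1 tested mature B cell marker was higher in KO and 5 were lower. For T cell markers these numbers were 0 and 4, and for epithelial markers 1 and 2. For myeloid markers they were 2 and 1, and for fibroblast and endothelial markers 1 and 2. In bulk RNA, a change in the make-up of the culture and a change in RNA per cell cannot be told apart, and the part of these marker differences in the results on the ERK feedback genes was not tested. Whether the groups differ in more than BCL7A, such as in clone or cell identity, was not tested either.

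Of the 10 ERK feedback genes, 9 were higher in the KO libraries and SPRY1 alone was lower, by edgeR's quasi-likelihood test with Benjamini-Hochberg adjustment over all tested genes and a threshold of 0.05. Among all tested genes, 36.4% were called higher and 39.8% lower, 76.2% in all. At least 2-fold higher were DUSP4, DUSP6, SPRY4, ETV4, ETV5 and PHLDA1, so 6 of 10, where 9.47% of all tested genes were. SPRY4 lay near this limit and was below it in some of the alternative settings given at the end. The median log2 fold change (KO over control) was 1.14 over the 10 genes and -0.06 over all tested genes. KO and control libraries did not overlap for any of the 10, with 9 higher and 1 lower in KO, where 41.3% and 46.1% of all tested genes had non-overlapping groups in those directions. The 10 names were picked with results of these data known, so these counts describe the genes and are no test of the pathway.

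**Figure D1:**
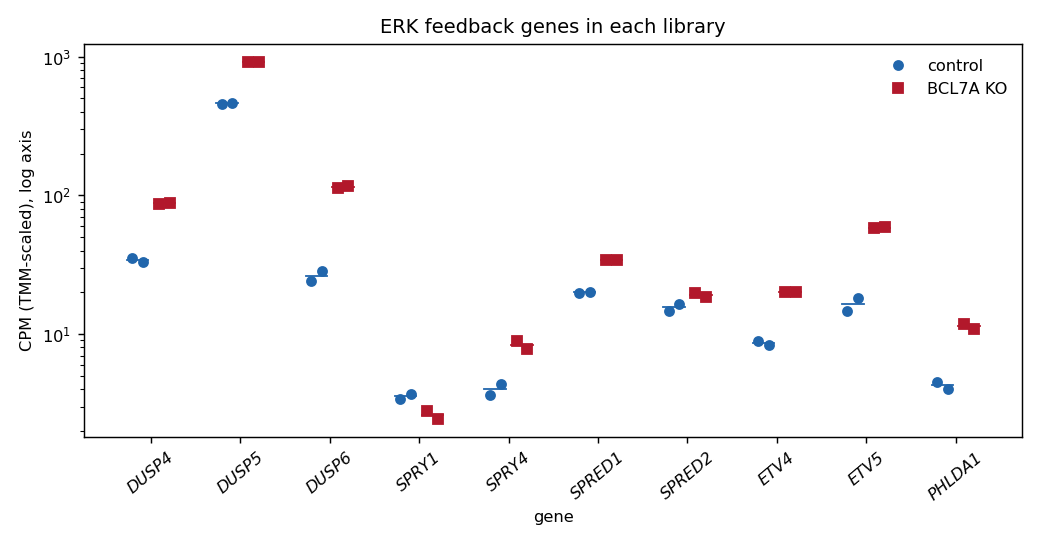
TMM-scaled CPM on a log axis for the 10 ERK feedback genes, with a circle for each control library, a square for each BCL7A KO library and a short line at each group mean (n = 2 per group). Squares lie above circles for every gene but SPRY1, and DUSP5 is near 914 CPM in KO and 461 CPM in control libraries, above all the others.

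Promoter sequence from RefSeq (GRCh38.p14) was examined for 6 of the 10 genes (DUSP6, SPRY1, SPRY4, SPRED1, SPRED2 and PHLDA1), in 8 windows reaching from 250 bases before to 50 after a transcription start. No window was available for DUSP4, DUSP5, ETV4 and ETV5, so these were not searched for any motif. DUSP6 is shown because it rose most and because its window held the only matches to the recognition octamers of CIC, a transcriptional repressor that ERK signalling inactivates. SPRED2 is shown for the only AP-1 match, and SPRY1, the only gene that was lower, for comparison. Each is written 5′ to 3′ on the gene's own strand, with motif matches in capitals. The DUSP6 stretch runs from 120 bases before to 9 bases after the start (chr12:89352493-89352621, minus strand), the SPRED2 stretch ends at the first transcribed base of an internal start (chr2:65366778-65366807, minus strand), and the SPRY1 stretch is the 120 bases before its upstream start (chr4:123396675-123396794, plus strand).
DUSP6: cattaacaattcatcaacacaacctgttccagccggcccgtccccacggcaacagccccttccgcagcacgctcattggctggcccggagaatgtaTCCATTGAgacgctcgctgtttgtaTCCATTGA
SPRED2: taaaatgcggactaaccctcggaTGACTCA
SPRY1: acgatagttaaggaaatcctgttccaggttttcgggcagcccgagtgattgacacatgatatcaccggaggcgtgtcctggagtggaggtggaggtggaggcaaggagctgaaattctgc

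The DUSP6 window held TCCATTGA at 2 positions, bases -24 to -17 and 2 to 9 counted from the start; this is the reverse complement of the CIC octamer TCAATGGA. That octamer occurs, on either strand, in 0.51% of 35116 RefSeq promoter windows of the same length. Any of the 4 octamers searched (TGAATGAA, TGAATGGA, TCAATGAA and TCAATGGA, both strands) occurs in 3.77% of windows, and at least 2 matches in 0.327%. TGACTCA, the AP-1 site whose reverse complement is TGAGTCA, lay in 1 of the 8 windows and in 4.95% of all. The ETS site CCGGAAGT and the cyclic AMP response element TGACGTCA, found in 4.14% and 1.85% of all windows, were in none of the 8. A match is a description of the letters and shows no binding. CIC mRNA itself was 112 ± 2.93 CPM in KO and 120 ± 1.41 CPM in control libraries (by edgeR, adjusted p = 0.0102 and log2 fold change -0.10, SE 0.04).

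The 3 DUSP genes, which encode MAP kinase phosphatases, were all higher in the KO libraries. DUSP6 (chromosome 12, 89347232 to 89353271), a cytoplasmic phosphatase specific for ERK, was 114 and 116 CPM in the KO libraries against 24.0 and 28.5 CPM in the control libraries. Both KO libraries were far above both control libraries, and DUSP6 rose 4.38-fold (log2 fold change 2.12, SE 0.05, adjusted p = 2.09e-21 by edgeR). Its fold change exceeded that of 98.7% of tested genes. DUSP4 (chromosome 8, 29333064 to 29350668), a nuclear phosphatase that ERK induces, was 87.0 and 87.7 CPM in KO against 35.3 and 32.8 CPM in control libraries. It rose 2.57-fold (log2 fold change 1.36, SE 0.05, adjusted p = 3.69e-20 by edgeR), with a gap between the groups far wider than the spread within either. DUSP5 (chromosome 10, 110497838 to 110511544), a nuclear phosphatase specific for ERK, was 910 and 917 CPM in KO against 457 and 465 CPM in control libraries, a 1.98-fold rise (log2 fold change 0.99, SE 0.02, adjusted p = 8.08e-24 by edgeR).

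Per kilobase of the longest annotated transcript, DUSP5 was also the most abundant of the 10 genes in both groups, at 357 CPM per kb in KO and 180 CPM per kb in control libraries. It made up 89.5% of the summed CPM per kb of the 3 phosphatase genes in both KO libraries and 93.6% to 93.8% in the control libraries. DUSP6 held 6.5% and 6.6% of that sum in KO libraries and 2.9% and 3.3% in control libraries, with no overlap between the groups. In the KO group, DUSP6 (26.1 CPM per kb), DUSP4 (15.8) and ETV5 (14.2) followed DUSP5, then ETV4 (8.25), SPRED2 (4.64), SPRED1 (4.39), SPRY4 (1.56), PHLDA1 (1.42) and SPRY1 (1.00). Only SPRY4 and PHLDA1, neighbours in this order, overlapped between libraries. In the control group the order after DUSP5 was DUSP4 (6.15 CPM per kb), DUSP6 (5.96), ETV5 (4.01), SPRED2 (3.79), ETV4 (3.54), SPRED1 (2.58), SPRY1 (1.36), SPRY4 (0.747) and PHLDA1 (0.527). There, DUSP4 overlapped with DUSP6, and ETV5, SPRED2 and ETV4 each overlapped with the others.

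The Sprouty and SPRED genes, whose products restrain RAS and RAF activation, were less uniform. SPRY4 (chromosome 5, 142310427 to 142326455) was 8.86 and 7.82 CPM in the KO libraries against 3.62 and 4.37 CPM in the control libraries, so that the lowest KO library was well above the highest control library. It rose 2.09-fold (log2 fold change 1.05, SE 0.15, adjusted p = 4.65e-07 by edgeR). SPRED1 (chromosome 15, 38252326 to 38357249), which brings the RAS inactivator neurofibromin to the membrane, was 34.2 and 34.1 CPM in KO against 19.9 and 20.2 CPM in control libraries. Replicates nearly coincided, and SPRED1 rose 1.70-fold (log2 fold change 0.76, SE 0.07, adjusted p = 1.88e-11 by edgeR).

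SPRED2 (chromosome 2, 65310851 to 65432637), a paralog of SPRED1, differed least among the genes that were higher. Its levels were 19.6 and 18.4 CPM in KO against 14.6 and 16.5 CPM in control libraries, groups that were close but did not overlap (1.22-fold, log2 fold change 0.29, SE 0.09, adjusted p = 0.00397 by edgeR). The SPRED2 call was lost without KO replicate 1 (log2 fold change 0.25, adjusted p = 0.0619) and without control replicate 1 (0.20, adjusted p = 0.0530), with DESeq2 (0.29, adjusted p = 0.0595) and with upper-quartile factors (0.15, adjusted p = 0.112). SPRY1 (chromosome 4, 123396795 to 123403760), a Sprouty paralog of SPRY4, went the other way. It was 2.79 and 2.44 CPM in KO against 3.42 and 3.69 CPM in control libraries, from 66 to 98 counts a library (log2 fold change -0.45, SE 0.20, adjusted p = 0.0406 by edgeR). Its call was lost without KO replicate 1 (log2 fold change -0.53, adjusted p = 0.0806), without KO replicate 2 (-0.34, adjusted p = 0.272) and without control replicate 2 (-0.40, adjusted p = 0.122), with DESeq2 (-0.44, adjusted p = 0.218) and with no filter on low counts (-0.36, adjusted p = 0.141). Within the 4 genes, SPRY1 made up 9.0% and 8.3% of the summed CPM per kb in KO libraries and 16.1% and 16.0% in control libraries, while SPRY4 held 13.9% and 13.0% against 8.4% and 9.2%.

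The ETS factors and PHLDA1 were all more than 2-fold higher in the KO libraries. ETV5 (chromosome 3, 186046308 to 186110318) was 57.8 and 58.7 CPM in KO against 14.7 and 18.3 CPM in control libraries, the second largest difference of the 10 (3.53-fold, log2 fold change 1.81, SE 0.07, adjusted p = 6.17e-18 by edgeR). ETV4 (chromosome 17, 43527844 to 43579620), its paralog, was 20.11 and 19.97 CPM in KO against 8.85 and 8.34 CPM in control libraries (2.33-fold, log2 fold change 1.22, SE 0.10, adjusted p = 2.66e-12 by edgeR). In both cases the groups were separated by much more than the spread between replicates. ETV5 made up 62.9% and 63.4% of the pair's summed CPM per kb in KO libraries and 49.5% and 56.5% in control libraries. PHLDA1 (chromosome 12, 76025447 to 76033932), which encodes a pleckstrin homology-like domain protein, was 11.9 and 11.0 CPM in KO against 4.50 and 4.01 CPM in control libraries (2.69-fold, log2 fold change 1.43, SE 0.13, adjusted p = 1.38e-10 by edgeR).

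Reads of overlapping genes may be mixed where the genes share sequence. For genes on opposite strands this depends on whether the authors' counting used strand, which the labels do not state. ETV5 overlaps DGKG on the same strand, which had 548 and 634 counts in KO and 131 and 133 in control libraries, against 2029 and 2168 and 284 and 406 for ETV5. ETV4 overlaps DHX8 on the opposite strand, which had more counts than ETV4 in every library (2801 and 3119 in KO, 1937 and 2179 in control). The antisense genes that overlap DUSP6, SPRY4, ETV5 and PHLDA1 had at most 11 counts in any library.

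**Figure D2:**
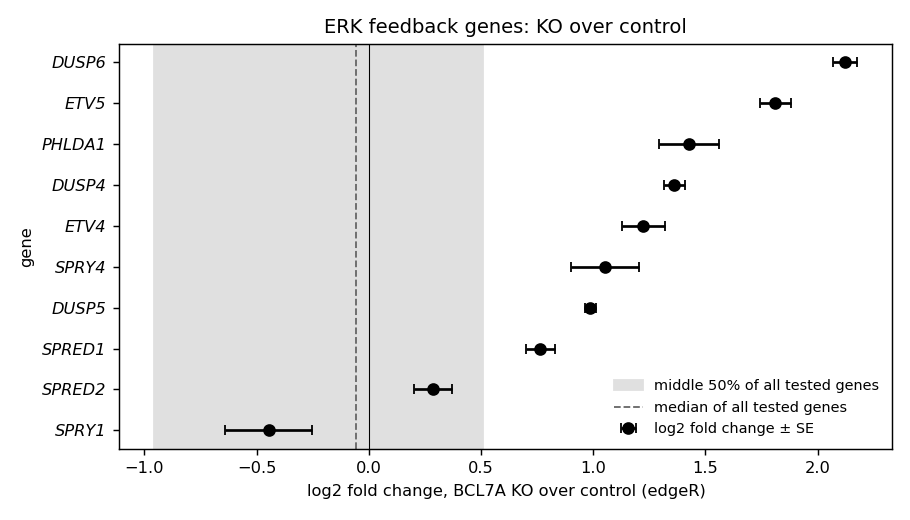
Log2 fold change of each ERK feedback gene, KO over control, with its standard error from the edgeR fit; the grey band holds the middle 50% of all 17885 tested genes and the dashed line marks their median of -0.06. DUSP6, ETV5, PHLDA1, DUSP4, ETV4, SPRY4, DUSP5 and SPRED1 lie to the right of the band, and SPRED2 and SPRY1 lie inside it.

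The fold changes were next set beside those of chromosomal neighbours. For each ERK feedback gene, the 40 nearest protein-coding genes (20 on each side) with a mean of at least 10 CPM were taken, a comparison chosen after the data were seen. DUSP6 exceeded all 40 of its neighbours, whose median log2 fold change was -0.08, and ETV5 exceeded 38 of 40 (median -0.01). ETV4 and PHLDA1 exceeded 38 and 39 of 40, DUSP4 and SPRED1 39 each, and DUSP5 36. PHLDA1 and DUSP6 lie on the same arm of chromosome 12, and the 1 neighbour of PHLDA1 above it was DUSP6. SPRY4 stood out less: the median of its neighbours on chromosome 5 was 0.75, 9 of 40 had a larger fold change, and SPRY4 less that median was 0.30. SPRED2 less its neighbours' median was 0.11, with 15 of 40 above it. SPRY1 was below 34 of its 40 neighbours, whose median was 0.24.

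**Figure D3:**
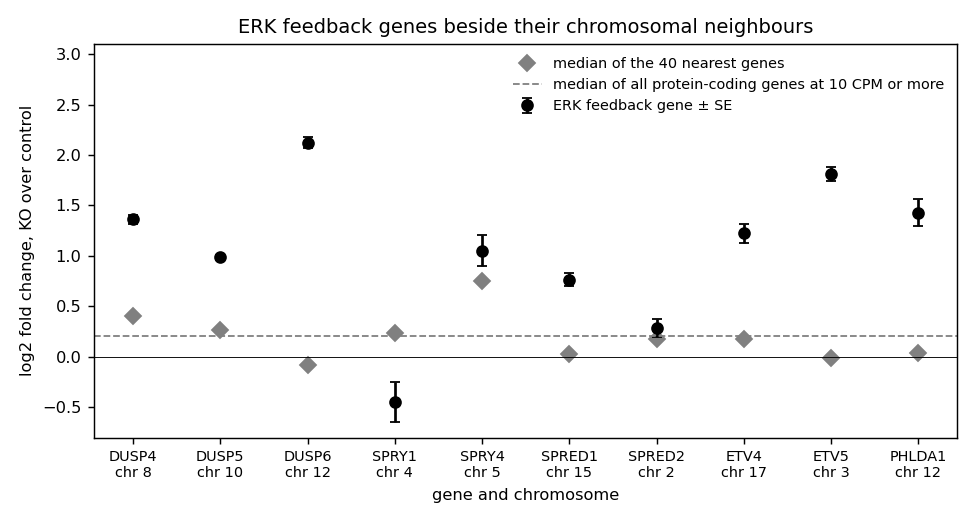
Log2 fold change, KO over control, of each ERK feedback gene (black, with its standard error) and the median of its 40 nearest expressed protein-coding genes (grey diamonds); the dashed line is the median of all 9114 such genes, 0.205. The distance between the marks is largest for DUSP6 and smallest for SPRED2, and SPRY1 is the only gene below its diamond.

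Other genes that ERK signatures commonly hold did not follow as a group. Of 11, 9 were tested, and 3 rose, 3 fell and 3 did not pass, with a median log2 fold change of 0.10, which was -0.04 with upper-quartile factors. The share that rose, 33.3%, was close to that of all tested genes, of which 36.4% rose and 39.8% fell. IL1RAP, a subunit of the interleukin-1 receptor, rose 3.55-fold to 57.2 ± 2.06 from 16.1 ± 0.789 CPM (adjusted p = 2.08e-20 by edgeR), and FOSL1, an AP-1 subunit, 3.62-fold to 5.06 ± 0.348 from 1.40 ± 0.000183 CPM (adjusted p = 4.02e-09). The control level of FOSL1 rests on 27 and 31 counts, so its small SD understates the counting error. CCND1, which encodes cyclin D1, fell to 151 ± 1.12 from 538 ± 5.32 CPM, 3.56-fold lower (adjusted p = 1.09e-28). From the same list, a Sprouty and a SPRED gene chosen after their values were seen were both lower: SPRY2 was 1.64 ± 0.334 against 3.24 ± 0.194 CPM (adjusted p = 3.72e-04 by edgeR) and SPRED3 1.48 ± 0.00551 against 2.41 ± 0.0375 CPM (adjusted p = 0.0144). Both rest on few counts, 52 to 75 a library for SPRY2 and 46 to 55 for SPRED3. With DESeq2, 2 genes of this list were lower rather than 3. EGR1, an immediate early transcription factor, was 7.63 ± 0.372 against 7.95 ± 0.416 CPM and did not pass (adjusted p = 0.666).

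Where 36.4% of all tested genes were higher and 39.8% lower, the 10 other DUSP genes examined were also split. Of these 10, 4 were higher, 5 lower and 1 did not pass (median log2 fold change -0.51). Whichever single library was left out (KO replicate 1 or 2, control replicate 1 or 2), 2 were higher. The 3 with the smallest p were all lower: DUSP16, a phosphatase that acts mainly on JNK and p38, was 8.94 ± 0.0858 against 44.8 ± 2.19 CPM (5.01-fold lower, adjusted p = 2.77e-21 by edgeR). DUSP22 was 89.5 ± 2.92 against 146 ± 3.46 CPM (1.63-fold lower, adjusted p = 1.48e-16), and DUSP7, a cytoplasmic ERK phosphatase, was 29.5 ± 0.569 against 50.6 ± 0.919 CPM (1.72-fold lower, adjusted p = 2.22e-13). The close relatives DUSP6 and DUSP7 thus differed in opposite directions.

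Upstream of RAS, receptor tyrosine kinases differed in both directions. Of 15, 12 were tested, and 5 rose, 6 fell and 1 did not pass (median log2 fold change -0.16). So 41.7% rose, where 36.4% of all tested genes did. Without KO replicate 1, without KO replicate 2 or with the stricter filter on low counts, 3 rose. FGFR3, which the myeloma translocation of this line places under immunoglobulin control, rose 2.78-fold to 216 ± 4.29 from 77.9 ± 3.15 CPM (adjusted p = 6.14e-24 by edgeR). IGF1R, the receptor of insulin-like growth factor 1, fell to 57.6 ± 0.107 from 135 ± 2.84 CPM (adjusted p = 1.29e-21). FLT3 was at 4.77 ± 0.50 CPM in the control group and at 0 counts in the KO group, at least 115-fold higher in control with a floor of 3 counts over the KO group. Setting genes at 0 counts to this bound could not move the median of any RAS-ERK list given here, since each such gene stayed below it.

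Of 17 adaptors and exchange factors that link receptors to RAS, 5 rose and 8 fell (median -0.10), with 3 rising under upper-quartile factors. In the reported fit 29.4% of them rose, against 36.4% of all tested genes. GAB2, a docking protein, fell to 5.11 ± 0.464 from 49.1 ± 1.63 CPM (adjusted p = 1.11e-23 by edgeR), whereas SHC1, an adaptor, rose to 316 ± 5.94 from 184 ± 2.56 CPM (adjusted p = 1.53e-19). RASGRP2, an exchange factor mainly for RAP1, had 1 count in the KO group and 518 in the control group, a ratio of 898 with an exact 95% Clopper-Pearson interval of 161 to 35553 that covers counting error only. Among 11 genes of RAS GTPase-activating proteins and LZTR1, which promote the inactivation or removal of RAS, 6 rose and 5 fell (median 0.58), and 3 fell without KO replicate 2, with DESeq2 or with no filter. In the reported fit 54.5% of these 11 genes rose, against 36.4% of all tested genes. RASA2 rose to 159 ± 5.83 from 81.0 ± 1.88 CPM and RASA3 to 72.4 ± 1.68 from 35.0 ± 0.397 CPM (adjusted p = 2.35e-19 and 2.45e-17 by edgeR).

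Within the kinase cascade, 9 of 18 genes rose and 5 fell (median 0.19), with 8 falling under upper-quartile factors. In the reported fit 36.4% of all tested genes rose and 39.8% fell, and whether the cascade genes differ from these shares was not tested. NRAS, the RAS gene that is mutated in this line, rose 2.29-fold to 512 ± 6.98 from 224 ± 1.32 CPM (log2 fold change 1.20, SE 0.03, adjusted p = 1.42e-24 by edgeR). MAP2K2, which encodes MEK2, rose to 172 ± 1.85 from 106 ± 1.14 CPM (adjusted p = 3.33e-17), and BRAF fell to 73.0 ± 0.464 from 137 ± 0.406 CPM (adjusted p = 4.03e-19). The table does not separate mutant from wild-type NRAS transcripts. Of 14 ERK substrates among kinases and transcription factors, 6 rose (42.9%, against 36.4% of all tested genes) and 7 fell (median -0.06). The 3 with the smallest p were all kinases of the RSK and MSK families. RPS6KA5 was 12.5 ± 0.139 against 50.7 ± 0.0193 CPM, RPS6KA1 9.41 ± 0.338 against 33.1 ± 1.33 CPM and RPS6KA3 46.1 ± 1.84 against 90.0 ± 0.78 CPM, all lower in KO (largest adjusted p = 1.33e-17 by edgeR).

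**Figure D4:**
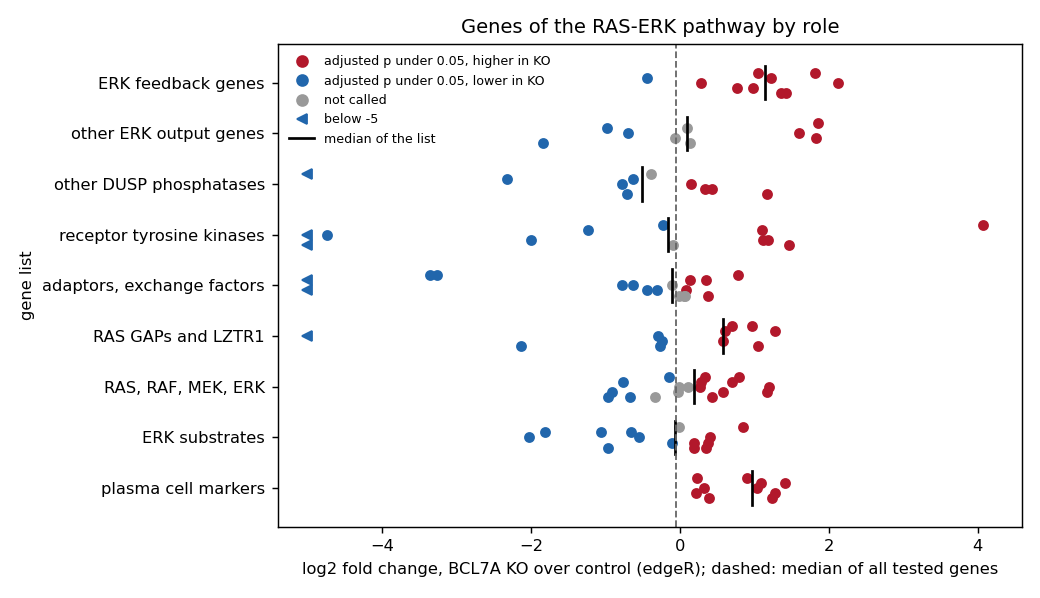
Log2 fold change, KO over control, of each tested gene (point) in the RAS-ERK gene lists by role and among plasma cell markers; red and blue mark adjusted p under 0.05, grey the others, black bars list medians, triangles values below -5, and the dashed line the median of all tested genes. The ERK feedback genes, with a median of 1.14, and the plasma cell markers, with a median of 0.97, lie mostly to the right, and the other lists spread to both sides.

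The plasma cell markers offer a scale for these sizes. Their log2 fold changes ran from 0.22 to 1.41, and DUSP6 (2.12), ETV5 (1.81) and PHLDA1 (1.43) were above this range, DUSP4, ETV4, SPRY4, DUSP5, SPRED1 and SPRED2 within it, and SPRY1 (-0.45) below it. Beyond the pathway, the genes whose log2 CPM over the 4 libraries lay nearest to DUSP5 were LMAN1, ATP5F1A and OAZ1 (Euclidean distance 0.068, 0.076 and 0.126). LMAN1, a cargo receptor of the secretory pathway, was 885 ± 7.84 CPM in KO and 465 ± 7.83 CPM in control libraries. Nearest to DUSP6 were LAPTM4B, AURKA and MAGEA1 (distance 0.177, 0.206 and 0.353). AURKA, a mitotic kinase, was 121 ± 2.71 against 28.2 ± 1.71 CPM. With 4 libraries in 2 groups, such a distance reflects little more than a similar level and a similar difference between the groups.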

How the data were processed

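Poly(A) RNA-seq counts of 4 libraries were used, 2 BCL7A KO and 2 control. The authors deposited estimated counts (Salmon 0.12, GRCh38, per the submitters' processing notes). Every value was whole, so no rounding was needed. Annotation and strand setting: not given in the sources used here. All 56809 gene names occur in GENCODE release 29 (GRCh38), which gave coordinates and transcript lengths. The 92 spike-in rows, none above 2 counts, were excluded.

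Genes passing filterByExpr (17885) were scaled with TMM and compared with edgeR 4.0.16 (glmQLFit with robust=TRUE, glmQLFTest, no covariates), with Benjamini-Hochberg adjustment over all of them and a threshold of 0.05. Rose means higher in KO than in control libraries, and fell means lower. The SE is the absolute log2 fold change over the square root of F. Levels are given as mean ± SD, n = 2. Replicates were kept as separate samples because they differed beyond sampling noise (chi-square over its degrees of freedom: KO 1.79, control 2.43). Scripts were tested on simulated data.

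The ERK feedback genes and all gene lists were chosen with earlier results of these data known. Named were all 10 feedback genes, BCL7A and the 3 members of each pathway list with the smallest p, except 1 that is not reported here; others named are CIC, EGR1, SPRY2, SPRED3, cell type markers, overlapping genes and the genes of nearest profile (log2 of CPM plus 0.5). Alternatives were upper-quartile and RLE factors, no filter, a stricter filter (mean count of at least 10 and 1 CPM in 2 libraries), DESeq2 1.42.0, limma-voom (limma 3.58.1), a replicate block, leaving out each library, no robust shrinkage, KO counts thinned to control depth and a threshold of 0.01. No gene name had several rows, so summing of rows was not needed.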

Additional observations from a re-analysis of the deposited data

How the results depend on the processing

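DUSP4, DUSP5, DUSP6, SPRY4, SPRED1, ETV4, ETV5 and PHLDA1 passed the threshold in the same direction under all 14 alternatives to the reported fit, the largest adjusted p being 7.55e-05 (SPRY4); DUSP6 ranged from 1.99 to 2.25 and ETV5 from 1.67 to 1.97 on the log2 scale. SPRED2 ranged from 0.15 to 0.37 and SPRY1 from -0.58 to -0.34, and no direction reversed. SPRY4 ranged from 0.92 to 1.19 and DUSP5 from 0.85 to 1.07, so each was above 2-fold in some settings and below it in others. The number of ERK feedback genes at least 2-fold higher therefore depends on the setting. The number of ERK feedback genes lower in KO was 0 rather than 1 with no filter, with DESeq2, with the replicate block and with a threshold of 0.01, and 0 to 1 when each library was left out, in each case through SPRY1. For the number higher in KO, leaving out each library gave 8 to 9. The count of all genes past the threshold ran from 12363 to 13102 without 1 library, against 13629. Where a group was left with 1 library, that library was assumed to vary like the other group. Same-numbered libraries did not deviate together (r = -0.01 across genes), so the numbers are not shown to pair them; with the replicate block, 13287 genes passed and SPRY1 had an adjusted p of 0.0595. Upper-quartile factors moved the median over all tested genes by -0.13 (log2). At 66 to 98 counts a library, SPRY1 is the ERK feedback gene most limited by depth.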
